A study of Macaca mulatta with 38 samples.

Results

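Of the 15815 barcodes counted in B cells of a rhesus macaque at day 32 after transplant, 5383 were listed in no other library of the series. They are described here as the day 32 B-only barcodes. They were selected on the read counts themselves, by a count above 0 in the B library of day 32 and a 0 in each of the other 37 libraries, and the whole table lists 44423 barcodes. Their absence elsewhere is therefore how they were chosen and not a result. They made up 34.0% of the barcodes of the day 32 B library (exact 95% interval 33.3 to 34.8%) and 31.1% of its 2549287 reads (31.0 to 31.1%). Over the whole table, 39.9% of barcodes (17715) were listed in 1 library only, and the day 32 B-only barcodes were 30.4% of these. All intervals reflect counting error alone: no molecular identifiers were used, and PCR copies of one molecule are not independent. Intervals on barcodes also take each barcode as a separate draw, although a cell can carry several, so they may be too narrow.

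All libraries came from peripheral blood of 1 animal, named ZL34, a male of 4 years. Its CD34+ cells, mobilised with G-CSF/AMD1300, received a lentiviral barcode library (multiplicity of infection 25) and were returned after TBI, and cidofovir was dosed at 5 mg/kg each week. The labels name 8 B libraries beside 9 of T, 7 of Mono, 7 of Gr, 5 of nRBC and 1 each of CD34p and EOS, and the B libraries are from days 32, 119, 187, 266, 365, 393, 494 and 553. Each lineage and day has 1 library, so there are no replicates and no difference was tested. Column sums ran from 766039 to 3832849 reads. Barcode counts hold no marker genes, so the labelled cell type could not be checked.

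A lentiviral barcode is a short DNA tag written into the genome of a transduced cell and passed to its descendants, so that barcodes counted in sorted blood cells report which transplanted cells contributed to them. B cells are antibody-producing lymphocytes that arise from stem and progenitor cells in the marrow and circulate in blood. Early after a transplant, blood is made in large part by short-lived progenitors, and long-lived stem cells contribute more of it later. A cell that took up several vector copies carries several barcodes, so the number of barcodes is not a number of cells or clones.

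The day 32 B-only barcodes with the most reads, those at the median and those at the lower end are printed first, because they span the abundance range that the results turn on. Each is given 5′ to 3′ up to the sequencing adapter, with the shared first 6 bases in lower case and the variable part in capitals.
mb1: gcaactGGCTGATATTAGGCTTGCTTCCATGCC
mb2: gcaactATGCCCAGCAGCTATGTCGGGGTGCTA
mb3: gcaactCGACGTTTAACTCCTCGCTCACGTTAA
mb4: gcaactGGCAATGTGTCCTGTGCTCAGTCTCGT
mb5: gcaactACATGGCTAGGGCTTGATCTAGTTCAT
mb6: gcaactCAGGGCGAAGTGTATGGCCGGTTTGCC
mb7: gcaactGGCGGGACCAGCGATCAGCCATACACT
mb8: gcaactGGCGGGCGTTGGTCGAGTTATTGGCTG
mb9: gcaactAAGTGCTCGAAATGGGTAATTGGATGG
mb10: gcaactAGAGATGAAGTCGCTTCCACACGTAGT

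For comparison, rt1 to rt4 are the 4 barcodes with the highest day 32 B counts among those listed again in a later B library, and rt5 to rt8 are the 4 with the highest counts among those listed in all 7 later B libraries. They are printed in the same way.
rt1: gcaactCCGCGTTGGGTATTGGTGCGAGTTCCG
rt2: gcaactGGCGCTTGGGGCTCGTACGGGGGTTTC
rt3: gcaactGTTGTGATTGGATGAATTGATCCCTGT
rt4: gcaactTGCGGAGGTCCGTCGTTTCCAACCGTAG
rt5: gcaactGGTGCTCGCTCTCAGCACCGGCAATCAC
rt6: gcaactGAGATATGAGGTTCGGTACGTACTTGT
rt7: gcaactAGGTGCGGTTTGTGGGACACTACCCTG
rt8: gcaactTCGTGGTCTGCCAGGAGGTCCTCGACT

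No single barcode of the day 32 B library was abundant, B-only or not, and the highest of all had 0.0771% of its reads. The highest B-only barcode, mb1, had 753 reads, or 0.0295% of the library. It was followed by mb2 with 657 reads, mb3 with 629, mb4 with 611, mb5 with 592 and mb6 with 534. The median was 122 reads, or 0.00479% of the library, which mb7 and mb8 had. The lowest, mb9 and mb10 among 113 such barcodes, had 101 reads, which is also the lowest count above 0 in the whole table. A listed 0 was therefore taken as 100 reads or fewer, which is an inference from the counts. Of the B-only reads, 62.1% came from barcodes of 101 to 165 reads, 29.9% from 166 to 291 and 8.04% from 292 or more. Of the 5383, 23.7% had 110 reads or fewer, 994 had 200 or more, 161 had 300 or more and 9 had 500 or more.

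The other barcodes of the day 32 B library fell into 3 sets. The largest were the 7996 returning barcodes, listed in at least 1 of the 7 later B libraries, which made up 50.6% of barcodes (49.8 to 51.3%) and 53.7% of reads. Another 1370 (8.66%) were listed on a later day but in no later B library, and 1066 (6.74%) were shared only with T, Gr or Mono of day 32. Of the returning barcodes, 5792 (72.4%) were also listed in a library of another lineage and 2204 were listed in B libraries alone.

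Day 32 B-only and returning barcodes had nearly the same median abundance and differed mainly in their upper range. The median was 122 reads (exact 95% interval of the median 121 to 123) in the B-only barcodes and 128 (127 to 129) in the returning ones, a ratio of 0.953. Both sets hold only counts of 101 reads or more, so both medians lie close to the limit and their ratio is a weak measure. The lower quartile was 111 against 114 reads, and the upper quartile 149 against 218. The share with 200 reads or more was 18.5% of the B-only and 30.7% of the returning barcodes, and the share with 300 or more was 2.99% and 8.70%. The barcodes shared with other lineages of day 32 alone lay between, with an upper quartile of 205 reads, and those of later non-B libraries had 199. The 2 ranges overlapped over most of their length, from 101 to 753 reads in the B-only and 101 to 930 in the returning barcodes. The most abundant barcode of the library, with 1965 reads, was in neither set and was listed later outside B only.

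The day 32 B counts were not spread evenly but gathered around preferred values. In the histogram smoothed with an SD of 8 reads, maxima lay at 108, 226 and 338 reads and minima at 166 and 292. The first maximum lay against the limit of the table, so an unknown part of it is not listed. Of the later B libraries, that of day 187 had evenly spaced maxima of 125, 248 and 376 reads, and that of day 393 had 119, 238 and 361. That of day 119 had 160, 236 and 316, with gaps much smaller than its first maximum. Day 553 had only 156 and 312, too few to show an even spacing. The other 3 had no such even series, with maxima of 114, 218 and 384 reads for day 266, 180 and 284 for day 365, and 212, 329 and 357 for day 494. Nor had the Gr library of day 32, with 110, 331 and 365, or the Mono library, with 123 and 185. These maxima were found after the counts had been seen. They were used to cut the day 32 B barcodes into 3 count classes, of 101 to 165, 166 to 291 and 292 to 1965 reads.

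The share of barcodes that were B-only fell, and the share that returned rose, from one count class to the next. Of the 10964 barcodes in the lowest class, 37.8% (36.9 to 38.7%) were day 32 B-only and 46.8% (45.8 to 47.7%) returned. Of the 3805 in the middle class, 28.1% (26.7 to 29.6%) were B-only and 56.1% (54.5 to 57.6%) returned. Of the 1046 in the highest class, 16.5% (14.3 to 18.9%) were B-only and 70.3% (67.4 to 73.0%) returned. The lowest class held 76.9% of the B-only and 64.1% of the returning barcodes. The other 2 sets changed less across the classes: barcodes shared only with other lineages of day 32 were 6.74%, 6.91% and 6.12%, and those listed later only outside B were 8.73%, 8.91% and 7.07%.

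Within the lowest class the return share was nearly flat. It was 45.0% at 101 to 110 reads, 47.7% at 111 to 120, 46.6% at 121 to 130, 48.8% at 131 to 140 and 47.8% at 141 to 165. Of these 5 ranges, the share of B-only barcodes was highest in the lowest range, at 39.1%, and lowest at 131 to 140 reads, at 35.3%. Above that class the return share was 53.2% at 166 to 200 reads, 56.6% at 201 to 240 and 57.3% at 241 to 291. It reached 64.9% at 292 to 340 reads, 73.0% at 341 to 400 and 77.3% above 500. Barcodes near the limit were thus B-only about as often as others of the lowest class, and 9 of the 89 barcodes with 500 reads or more (10.1%) were B-only.

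The same ordering by count class was seen in each of the 7 later B libraries. At day 187, which listed the most day 32 B barcodes (4116, or 26.0% of them), it listed 23.7% of the lowest class, 29.0% of the middle and 39.2% of the highest. The B library of day 119 listed 14.7%, 21.2% and 31.9% of the 3 classes, that of day 266 listed 15.5%, 19.7% and 29.0%, and that of day 365 listed 14.7%, 18.3% and 27.0%. For day 393 the shares were 20.4%, 24.8% and 34.4%, and for day 553 13.1%, 18.2% and 25.6%. At day 494, the B library with the lowest column sum (789584 reads), they were 5.98%, 8.31% and 12.0%. Other lineages of the same day showed it too: 29.2%, 37.5% and 53.2% of the 3 classes were listed in T, Gr or Mono of day 32.

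Most returning barcodes were listed in few later B libraries, with libraries of other lineages left out of the count. 3539 (44.3%) were listed in 1 later B library, 1716 in 2, 910 in 3, and 357 (4.47%) in all 7. Their median day 32 count, which lies close to the limit, was 127 reads for 1 later B library, 135.5 for 6 and 129 for 7. The upper quartile was 204 reads for 1, 231.8 for 6 and 220 for 7. The share in the lowest count class was 68.4% for 1, 55.5% for 6 and 62.5% for 7.

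The returning barcodes with the most day 32 reads had varied later courses. rt1 had 930 reads (0.0365%) at day 32 and was listed in 6 later B libraries. On day 494 it had 281 reads, or 0.0356% of the listed reads, where the limit of 100 reads was itself 0.0127%. Its share lay between 0.00440% (day 553) and 0.0106% (day 393) on the other 5 days. At day 553 the 6 barcodes of highest mean share held 41.4% of the listed reads, which lowers the shares of all others there. rt2 had 885 reads at day 32 and reached 6464 reads (0.206%) in B at day 393, with a 0 at day 553. rt3 had 817 reads at day 32, more than mb1, and was listed again in B only at days 393 and 553, with 137 and 159 reads. rt4 had 763 reads at day 32 and 330, 131 and 338 at days 119, 187 and 266, and a 0 in B after that. Thus rt3 and rt4, although close to mb1 in day 32 count, were listed in only 2 and 3 later B libraries. Over all lineages they were listed in 5 and 10 other libraries. rt4 had 298 reads in T of day 393 and 228 in T of day 553, after its last listing in B.

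The later shares of rt5 to rt8 varied from day to day. These 4 were chosen for the highest day 32 counts, 518 to 693 reads, among the 357 barcodes listed in every B library. The 357 had a median of 129 reads at day 32 and quartiles of 114 and 220. rt5 had 693 reads (0.0272%) at day 32 and then 0.0341%, 0.0264%, 0.0280%, 0.0389%, 0.0282%, 0.0246% and 0.00897% on the 7 later days, in order. rt6 had 0.0238% at day 32 and between 0.0126% (day 119) and 0.0458% (day 365) after that. rt7 had 0.0208% at day 32 and between 0.00401% (day 365) and 0.0383% (day 266). rt8 had 0.0203% and between 0.00382% (day 393) and 0.0328% (day 119). All these are shares of listed reads and depend on the column sum. The 6 barcodes of highest mean share held 41.4% of it at day 553 and 10.6% at day 266, which lowers the shares of all others. At day 494 the limit of 100 reads was itself 0.0127%. Shares without these 6 barcodes were not computed for rt5 to rt8. At day 32, mb1 to mb4 (0.0240 to 0.0295%) held more than rt6, rt7 and rt8, so the day 32 levels of these named barcodes overlapped.

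The limit of the table allowed only small falls to be seen for most B-only barcodes. At an unchanged share, all 5383 had an expected count above 100 reads in the B libraries of days 187, 266, 365, 393 and 553. Only 1979 (36.8%) did at day 119 and 131 (2.43%) at day 494. Expected counts leave out sampling error, and at day 365 the lowest lay at only 1.008 times the limit. The 6 barcodes of highest mean share held 0.415% of the reads of B of day 187 and 41.4% of those of B of day 553, so the bounds were also computed without them, which was decided after the counts had been seen. Without them, and taking counts as exact, the 0 in B of day 187 placed mb1 at least 8.97-fold below its day 32 share. The median B-only barcode lay at least 1.45-fold lower, and the bound passed 2-fold for 23.0% of the B-only barcodes. The bounds hold no sampling error, and the barcodes were chosen for having a 0 there, so a true fall was not tested. For mb1 the bound at day 553 was 9.94-fold with these 6 in the column sums and 5.83-fold without them. For the median B-only barcode it was 1.61-fold with them, and without them its day 32 level lay below the limit (0.945 of it), so no fall is shown there. Without these 6 barcodes, only 1979 had an expected count above the limit in at least 5 later B libraries, against all 5383 with them. With these 6 left in and a limit of 150 reads, 1332 did.

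A higher limit removed most B-only barcodes and brought others under the rule. Of the 5383, 1332 (24.7%) had more than 150 reads and 982 (18.2%) more than 200, where they were 26.2% and 24.4% of the day 32 B barcodes left. With counts of 150 or fewer set to 0 in every library, 2254 barcodes met the rule, or 44.3% of those left. Of these, 922 met it only because their counts elsewhere had been set to 0, and 41.7% of the barcodes left returned. With counts of 200 or fewer set to 0, 2234 met it, or 55.5%, of which 1252 were new, and 33.4% of the barcodes left returned. The upper quartile of day 32 counts was 252 reads in the barcodes meeting the rule and 303 in the returning ones at the limit of 150, and 268 and 333 at the limit of 200.

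Barcodes just outside the rule were listed in exactly 1 other library. There were 3223 of these, with a median of 124 reads in B at day 32 and 134 in the other library, where 449 (13.9%) had 110 reads or fewer. That library was a B library for 1545 of them (47.9%), most often that of day 187 (508), then Gr of day 32 (462) and Mono of day 32 (438). The 4 printed here had 101 reads in it, the lowest count possible, and show how close to the rule a barcode can lie.
nx1: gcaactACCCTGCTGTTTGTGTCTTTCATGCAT
nx2: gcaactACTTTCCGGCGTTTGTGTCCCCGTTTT
nx3: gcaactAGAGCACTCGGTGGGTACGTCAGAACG
nx4: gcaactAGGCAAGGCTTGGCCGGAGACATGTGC

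Their other library was B of day 553 for nx1, Mono of day 32 for nx2, Gr of day 32 for nx3 and T of day 266 for nx4. In B of day 32 they had 123, 225, 108 and 204 reads. These levels lie within the range of the B-only barcodes, so 1 read fewer elsewhere would have placed each of the 4 under the rule.

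Of all 38 libraries, B of day 32 listed the most barcodes and had the highest number and share of barcodes found nowhere else. Among the later B libraries, barcodes found in that library alone were most frequent on day 187, with 14.7% of its barcodes (1978). Day 266 followed with 10.9% (978), day 393 with 10.5% (1221) and day 553 with 10.1% (803). They were fewer on day 119, with 7.98% (666), on day 365, with 6.29% (521), and on day 494, with 0.698% (23). Of the other lineages of day 32, the T library had 25.3% (133 of 525), the Gr library 15.9% (1403 of 8820) and the Mono library 14.1% (1443 of 10210). The share of reads in such barcodes was 31.1% in B of day 32, 21.4% in T, 13.7% in Gr and 11.6% in Mono of that day, and 0.405 to 9.12% in the later B libraries. As in B of day 32, their median count was below that of the library's other barcodes, at 128 against 145 reads in Gr and 136 against 155 in Mono. B of day 32 was also close to the limit: 42.3% of its barcodes had 120 reads or fewer, against 28.6% in Gr and 20.2% in Mono of day 32 and 5.20 to 27.0% in the later B libraries. The T library of day 32, with the next highest share of barcodes found nowhere else, had 0.762% of its barcodes there. The part of this closeness in the number of B-only barcodes was not tested.

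In a given later B library, barcodes of the B libraries after day 32 were listed more often than those of day 32. At day 393, 22.4% of the day 32 B barcodes were listed, against 41.3 to 57.8% of the barcodes of the 4 B libraries between. At day 553 it was 15.2%, against 30.5 to 71.4% over 6 B libraries, and at day 187 it was 26.0%, against 52.2% for the barcodes of day 119. Listing in any later B library does not keep this order, since fewer such libraries follow a later day. It was 50.6% for the barcodes of day 32 with 7 libraries to follow, 78.0% for day 119, 63.1% for day 187, 64.0% for day 266, 68.6% for day 365, 42.2% for day 393 with 2 to follow and 71.4% for day 494 with 1. These are single libraries of unequal column sum, and the differences were not tested.

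Seen from the other side, B of day 32 listed about the same share of each of the larger later libraries of T, B, Gr and Mono. Among the 21 later libraries with at least 500 barcodes, the share of their barcodes that was listed in B of day 32 ran from 29.8% (T of day 536) to 33.3% (Mono of day 119), with a median of 31.1%. It was 30.2 to 33.3% for the 7 later B libraries and 29.8 to 32.0% for the later T libraries. In the smaller later libraries, which hold 201 barcodes or fewer and include all of nRBC, EOS and CD34p, it ran from 25.0% (Mono of day 494) to 45.5% (nRBC of day 553). The share listed in Gr of day 32 was similarly narrow, 22.6 to 27.4%, and that in Mono of day 32 was 27.7 to 40.8%. The share listed in a later B library varied more: in B of day 187 from 38.9 to 80.9%, and in B of day 393 from 35.7 to 83.3%, each over 20 libraries.

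Barcodes listed in more libraries were more often listed in B of day 32 too, but over a narrower range than in a later B library, and at nearly the same count. Of the 15555 barcodes with 1 library other than B of day 32, 20.7% (20.1 to 21.4%) were listed there. The share was 31.4% for 3 to 4 other libraries, 33.4% for 5 to 8, 33.9% for 9 to 14 and 36.3% (33.5 to 39.1%) for 15 or more. Their median day 32 B count was 124 reads at 1 other library and 130 at 15 or more. Counted in the same way, B of day 187 listed 11.4% of the barcodes with 1 other library and 92.3% of those with 15 or more, with medians of 129 and 486 reads. In Gr of day 32 the shares were 9.58% and 30.8%, and in Mono of day 32 they were 10.5% and 41.6%.

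The sequences of day 32 B-only barcodes differed little in these features from those that returned. The first 6 bases were GCAACT in 98.4% of the B-only and 98.1% of the returning barcodes. The adapter began after 33 bases in 80.3% and 80.8%. The median GC content of the variable part was 53.6% and 55.2%, with quartiles of 48.1 and 59.3% in both, and a run of 5 or more equal bases occurred in 7.47% and 7.73%. Adenine was the rarest base, at 16.3% and 16.1%, and guanine the most frequent, at 31.1% and 30.9%.

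No B-only barcode was a near copy of a more abundant one in the same library. None lay within 3 mismatches, over 50 bases compared position by position, of a day 32 B barcode with more reads. The same was true of every other set of the library, with a median distance of 11 in each, so this is not particular to the B-only barcodes. Against barcodes of higher summed count anywhere in the table, no B-only barcode was within 2 mismatches and 1 was at 3. The median was 10 in the B-only and 11 in the returning barcodes. mb1 was 10 mismatches from its nearest such barcode and mb7 was 9. Shifts by an inserted or lost base were not searched.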

How the data were processed

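Per the labels' protocols, 28 cycles of PCR on 200 ng of DNA recovered the barcodes. The values analysed are the read counts deposited by the authors, for 44423 sequences (50 bases each) in 38 libraries. Their unit was inferred from the values. Sequencer, reading program and low-count rule were each not given in the sources used here. Because no count lies between 0 and 101, a listed 0 was read as at most 100 reads. Column sums are reads of listed barcodes, not library depth.

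Columns were matched to samples by title. Shares have exact Clopper-Pearson intervals and medians order-statistic intervals at 95%. Count classes were cut at the minima of a histogram smoothed with an SD of 8 reads, and the class script was tested on simulated data. No count model was fitted, since each lineage and day has 1 library. The barcodes named are the B-only ones with the 6 highest, 2 median and 2 lowest counts, the 4 returning ones with the highest counts, the 4 in the most later B libraries and the 4 just outside the rule. Alternatives changed the limit, the libraries, the merging of sequences and single libraries. The members and lists were chosen with earlier results of these data known. Python 3.11.15, pandas 2.3.3, NumPy 2.4.6 and SciPy 1.17.1 were used.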

Additional observations from a re-analysis of the deposited data

How the results depend on the processing

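With counts of 150 or fewer set to 0 there were 2254 members, 44.3% of barcodes and 42.2% of reads, and 41.7% of barcodes returned. With counts of 200 or fewer set to 0 these were 2234, 55.5%, 53.4% and 33.4%. Over the B libraries only, members were 49.4% of barcodes and 46.3% of reads, and over later days only 40.8% and 37.8%. Over the libraries with a column sum at least that of B of day 32 they were 44.6% and 41.8%, with 44.9% returning. With only the most frequent first 6 bases the share of reads was 31.13%. Fewer zeros are asked for where libraries are left out, so the rule then takes more barcodes by construction. Leaving out each of the other 37 libraries gave 34.0 to 37.2% of barcodes and 31.1 to 34.1% of reads, with 43.5 to 50.6% returning, the extremes without B of day 187 or Gr of day 32. Merging sequences with the same bases before the adapter, or within 1 mismatch, changed nothing, since 0 were merged. The ratio of medians, which lie close to the limit, ran from 0.946 to 0.966 over these settings, and the gain in return from the lowest to the highest of 4 count groups from 12.8 to 16.4 percentage points. Members with an expected count above the limit at a constant share in at least 5 later B libraries numbered 1979 without the 6 leading barcodes. They numbered 1332 with these 6 and a limit of 150 reads, against 5383. Moving the class limits by 10 reads kept the 3 return shares within their intervals. A 0 cannot separate absence from 100 reads or fewer, and column sums leave out unlisted reads.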
